A study of Mus musculus with 4 samples.

Results

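Intergenic RNA of differentiating muscle cells was described from 8319 transcript units that the authors assembled from the reads and that carry no gene symbol. A unit was taken when its locus overlapped no locus of a row with a gene symbol (a named locus) and lay 5000 to 100000 bp from the nearest one. These units were 8319 of the 36780 assembled units and of the 61630 rows of the total RNA tables. Of the other units, 20431 overlapped a named locus, 6467 lay within 5 kb of one and 1563 lay beyond 100 kb. The series holds 4 libraries of C2C12, a line of mouse myoblasts whose cells fuse to myotubes on serum withdrawal, with 1 library in each group. The 2 total RNA libraries were strand specific and depleted of ribosomal RNA, and they are the only tables that list the units. MB was the myoblast culture, kept in growth medium and labelled -24 h relative to the switch to low-serum differentiation medium (DM), and MT was the myotube culture, labelled as 72 h in DM, for which a figure legend of the study gives a shorter time. The other 2 libraries were polyA RNA of MT at 48 h in DM, transfected with si-hnRNPL or with the control si-NC, and their tables hold 0 units, so nothing is said of the knockdown here. Each condition had 1 library, so differences could not be set against replicates and p-values are absent.

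RNA made outside annotated genes comes from several sources. Active enhancers are transcribed into enhancer RNAs (eRNAs), which are mostly short-lived and low, and those of clustered or super enhancers are called seRNAs. Other intergenic units belong to long noncoding RNA genes, to unannotated starts and ends of neighboring genes, or to repeats and processed copies of expressed RNAs. In muscle cells MyoD and its partners bind E-boxes in many distal elements, and a seRNA that contacts hnRNPL, a splicing factor that binds CA-rich RNA, was the subject of the study.

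The word intergenic holds only for the loci of the deposited tables. Against the GENCODE annotation of the same genome build (mm9), 1651 of the 8319 units (19.8%) overlapped an annotated gene, and 1081 overlapped a protein-coding one. Of these, 991 lay in an intron, 46 touched a coding exon, 26 touched a UTR and 18 touched another exon of a protein-coding gene. For 597 units the overlapping GENCODE gene was the very gene that was nearest in the tables, so that the tables held a shorter locus for it. The remaining 6668 units (80.2%) overlapped no GENCODE gene.

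Transcripts that the study assayed by qRT-PCR gave a first view of the units at base level. Both primers of seRNA-1, seRNA-2, seRNA-4, seRNA-5, seRNA-6 and seEpha2 matched mm9 exactly and as a pair at 1 place, inside a single intergenic unit each. The reference bases between the primers are shown from 5′ to 3′ in the direction of the forward primer, with the primer sites in capitals, because they tie the units to the study's own assays. In mm9 they lie at chr15:76809454-76809601 on the plus strand (seRNA-1, in XLOC_021210), chr3:101338183-101338415 on the minus strand (seRNA-2, in XLOC_041193), chr6:145950955-145951070 on the minus strand (seRNA-4, in XLOC_053924), chr12:8450742-8450886 on the minus strand (seRNA-5, in XLOC_013878), chr8:13210762-13210880 on the minus strand (seRNA-6, in XLOC_059807), chr4:140835407-140835487 on the plus strand (seEpha2, in XLOC_043794).
seRNA-1: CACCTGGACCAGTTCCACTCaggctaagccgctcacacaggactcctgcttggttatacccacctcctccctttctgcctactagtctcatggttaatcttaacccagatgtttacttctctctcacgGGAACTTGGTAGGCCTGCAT
seRNA-2: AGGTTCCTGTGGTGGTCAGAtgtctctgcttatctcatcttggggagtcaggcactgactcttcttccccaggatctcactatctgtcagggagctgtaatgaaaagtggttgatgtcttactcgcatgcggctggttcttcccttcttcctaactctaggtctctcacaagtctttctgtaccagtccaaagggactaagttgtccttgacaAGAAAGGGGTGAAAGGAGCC
seRNA-4: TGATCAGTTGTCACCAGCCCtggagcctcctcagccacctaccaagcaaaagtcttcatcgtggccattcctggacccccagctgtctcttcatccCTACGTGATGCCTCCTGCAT
seRNA-5: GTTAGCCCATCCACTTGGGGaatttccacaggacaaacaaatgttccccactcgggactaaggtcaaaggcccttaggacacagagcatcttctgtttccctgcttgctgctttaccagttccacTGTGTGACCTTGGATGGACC
seRNA-6: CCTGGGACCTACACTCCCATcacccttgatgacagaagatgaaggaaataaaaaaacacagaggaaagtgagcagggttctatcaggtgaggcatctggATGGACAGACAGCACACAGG
seEpha2: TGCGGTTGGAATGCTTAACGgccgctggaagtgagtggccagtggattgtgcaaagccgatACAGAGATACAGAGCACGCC

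A CAAA repeat occurred in the unit of seRNA-1 as 8 copies in a row, on the same strand as the forward primer. The run spans 32 bases, 2016 bases away from the amplified stretch, and is shown in capitals within 120 bases at chr15:76807362-76807481 because the repeat sits in the transcript that the study examined for hnRNPL contact.
CAAA run of seRNA-1: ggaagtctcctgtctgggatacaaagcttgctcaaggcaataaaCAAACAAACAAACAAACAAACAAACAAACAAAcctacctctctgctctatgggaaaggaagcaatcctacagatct
A run of 8 or more such copies, on either strand, was present in 21 of the 8319 loci, and a run of 4 or more in 354. The latter is 4.26% of these loci, against 2.97% of all assembled units, and the median span was also longer, at 994 bp against 758 bp. The share was alike in the neighboring classes, at 4.21% of units within 5 kb of a named locus and 4.61% of those beyond 100 kb.

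The units that hold the primers of seRNA-1, seRNA-2, seRNA-4, seRNA-5 and seRNA-6 were near 0 in MB and measured in MT. The study picked MT seRNAs for assay with their RNA-seq change from MB in view, so this contrast describes the choice and supports nothing further. FPKM, a measure of fragments scaled to transcript length and library size, was 0 in MB and 1.40 in MT (deposited 95% interval 1.20 to 1.60) for the seRNA-1 unit. At 3 fragments, the limit set here for a value of 0, this is at least 61.0-fold higher in MT. The seRNA-2 unit stood at 0 in MB and at 1.59 (1.48 to 1.70) in MT, at least 284-fold higher by the same limit. The seRNA-4 unit, beside the sarcoglycan partner Sspn, went from 0.0609 to 2.44. For the seRNA-5 unit the values were 0.00540 in MB and 0.805 in MT, and for the seRNA-6 unit 0.0545 and 1.42. The seEpha2 unit did not follow them, with 5.23 (4.33 to 6.14) in MB and 4.88 (4.09 to 5.68) in MT, intervals that overlap. On the log2((FPKM + 1) ratio) scale used below, the changes were 1.26 for seRNA-1, 1.37 for seRNA-2, 1.70 for seRNA-4, 0.84 for seRNA-5, 1.20 for seRNA-6 and -0.08 for seEpha2.

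**Figure D1:**
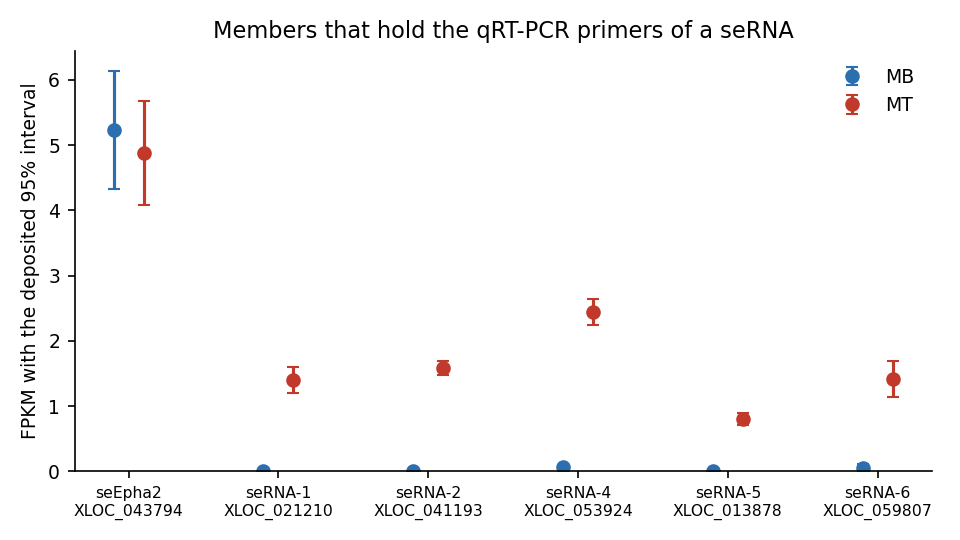
FPKM of the 6 units that hold both qRT-PCR primers of a seRNA, in the MB library (blue) and the MT library (red), with bars for the deposited 95% interval within a library. The units of seRNA-1, seRNA-2, seRNA-4, seRNA-5 and seRNA-6 lie at or near 0 in MB and between 0.805 and 2.44 in MT, while the seEpha2 unit is at 5.23 and 4.88.

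The nearest named gene did not move with these units in every case. The seRNA-1 unit lies 26114 bp from 1110038F14Rik, which was at 22.8 FPKM in MB and 19.8 in MT. It lies 35207 bp from Mb, the oxygen-binding myoglobin of muscle, which went from 0.0896 to 93.8 FPKM, and 64795 bp from Apol6, which went from 0.276 to 1.05. The seRNA-2 unit lies 65596 bp from Igsf3, which was at 6.68 FPKM in MB and 15.4 in MT. The seEpha2 unit lies 21440 bp from Epha2, an ephrin receptor, whose FPKM fell from 66.9 to 21.8 while the unit stayed near 5. Grtp1, nearest to the seRNA-6 unit, was at 2.75 in MB and 7.94 in MT, a log2 change of 1.25 beside 1.20 for the unit. Rhob, nearest to the seRNA-5 unit at 49584 bp, was at 68.9 and 86.4 FPKM, a change under the fold of 1.5. A further assayed transcript, CUFF.34282, amplified from XLOC_051721 and went the other way, with 0.984 FPKM in MB and 0.517 in MT. The pair for CUFF.37679 lay within XLOC_059985, whose intervals of 0.525 (0.246 to 0.803) in MB and 0.811 (0.475 to 1.15) in MT overlap. The pair for CUFF.31661 overlapped XLOC_049782 only in part, a unit at 0.457 FPKM in MB and 0.0782 in MT. The other primer pairs lay in named loci, in units within 5 kb of one or in no row.

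Most intergenic units were low, and their values leaned toward MT. The median FPKM was 0.113 in MB (quartiles 0.0322 and 0.262) and 0.245 in MT (0.169 and 0.437), against 0.239 and 0.472 over all assembled units. An FPKM above 0.05, the detection limit set here, was reached by 5612 units in MB and by 7828 in MT. Both libraries passed it for 5121 units, only MB for 491, only MT for 2707 and neither for 0. The last count reflects how a unit enters the tables, since the higher of its 2 values was never under 0.0852 FPKM. An FPKM of at least 1 was reached by 482 units in MB and by 807 in MT. The width of a deposited interval implies a number of fragments, whose median was 8 per unit in MB and 16 in MT. Over the units these fragments summed to 209092 in MB, 0.349% of those of all rows, and to 393744 in MT, 0.723%, while all rows together had 59960200 in MB and 54442400 in MT. The deposited intervals say nothing of the spread between cultures.

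The change of a unit was the log2 ratio of FPKM + 1, MT over MB, a scale on which low units change less, and an absolute value of 0.58 or more, a fold of 1.5, was counted as higher or lower. By that measure 709 of the 8319 units were higher and 305 lower in MT. The counts depend on the pseudocount, and with 0.1 in place of 1 they were 5308 and 1367. With 1 they are 8.52% and 3.67%, beside 15% and 7.37% of all rows and 19.8% and 3.09% of all assembled units. Units inside named loci made up 6152 of the 7295 higher units of all classes, and 30.1% of them were higher. The median log2 change was 0.20 (quartiles 0.02 and 0.32), between 0.15 for units within 5 kb of a named locus and 0.25 for those beyond 100 kb. Named genes with at least 1 FPKM in both libraries had a median of -0.23, and named genes of any level had a median of 0. Centred on -0.23, the median of the units was 0.43, with 1756 higher and 181 lower. That centre comes from genes at 1 FPKM or more, while most units were lower. On this scaling a unit with equal values in both libraries stands above 0. The larger counts are therefore no measure of a larger lean toward MT. Among the 289 units at 1 FPKM or more in both libraries the median was 0.002, so a lean above 0 was not seen there. Named genes under the same filter had the median of -0.23 given above. Units at 1 FPKM or more in either library, a filter that a high value in 1 library can pass, had a median of 0.45. The MT interval lay wholly above the MB interval for 3960 units (47.6%) and wholly below it for 878 (10.6%), against 42.2% and 6.6% of all assembled units.

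**Figure D2:**
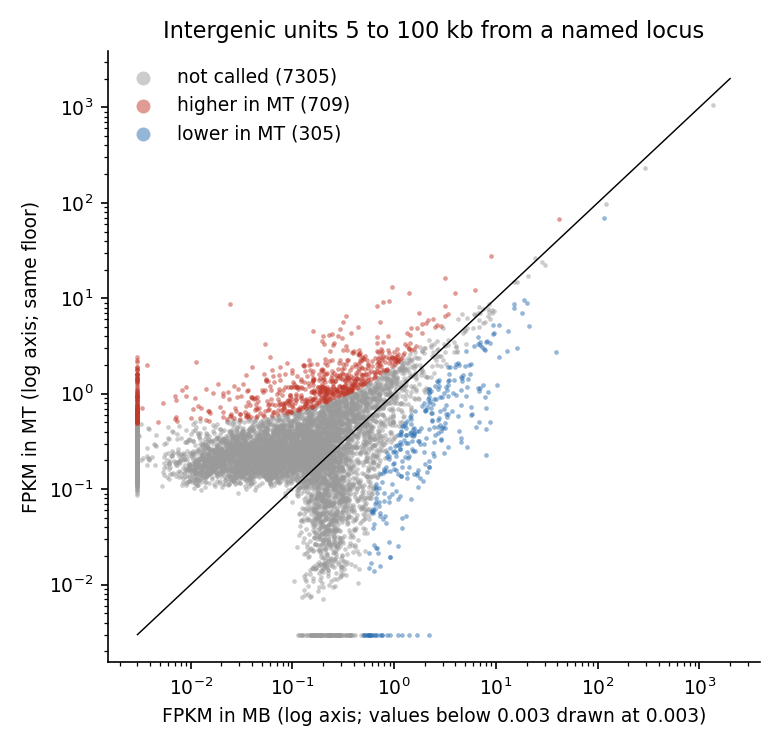
FPKM of each of the 8319 units in MB (horizontal, log axis) and MT (vertical, log axis), with values under 0.003 drawn at 0.003 and the diagonal marking equal values. The 709 units higher in MT are red, the 305 lower are blue, and the bulk lies above the diagonal below 1 FPKM.

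**Figure D3:**
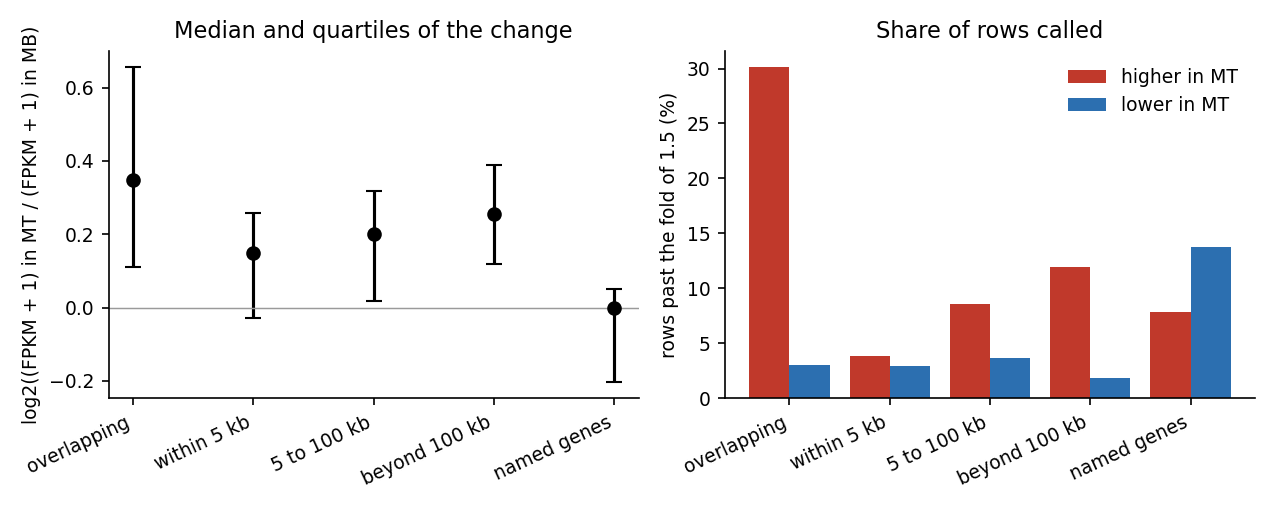
Left, median log2((FPKM + 1) ratio), MT over MB, with bars to the quartiles, for assembled units by distance from a named locus and for named genes. Right, the share of each class past the fold of 1.5 in either direction, where the units at 5 to 100 kb have 8.52% higher and 3.67% lower.

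The highest values belonged to short loci, several of which have near-identical copies elsewhere in the genome. XLOC_028874, 211 bp long and 10085 bp from Myl12b (a myosin regulatory light chain), had 1344 FPKM in MB and 1061 in MT, on 6278 and 5408 implied fragments. It was followed by XLOC_030101 at 292 and 234, XLOC_029937 at 122 and 97.7, XLOC_048299 at 116 and 68.5, and XLOC_037098 at 41.7 and 68.0. XLOC_030101 has 14 other places in the genome with at least 90% identity over 80% of its length, XLOC_048299 has 9, with matches in the loci of 1700016L04Rik, Cpa6 and the chaperone gene Hspa8, and XLOC_029937 has 5. XLOC_028874 has 1 and XLOC_037098 has 0 by the same rule. GENCODE places XLOC_028874 in an intron of the long noncoding RNA gene Gm16724. XLOC_048299 touches an exon there and overlaps Gm15459 and Gm17431, listed as a long noncoding RNA gene and a pseudogene. XLOC_030101, XLOC_029937 and XLOC_037098 overlap no GENCODE gene. Only XLOC_048299, lower in MT by 0.75 on the log2 scale, and XLOC_037098, higher by 0.69, passed the fold of 1.5 among these 5. Over the 30 units at 10 FPKM or more in either library, 7 were higher and 14 lower in MT, the median span was 243 bp, and 12 had at least 50% of their 32-base words at more than 1 place. Reads from other copies cannot be told apart from reads of these loci with FPKM alone.

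The bases of 3 short units show how far repeated sequence reaches in each. They are XLOC_028874 (whole, chr17:71313007-71313217), the strongest, XLOC_053816 (whole, chr6:132634702-132634995), a unit with a large rise, and XLOC_002997 (its middle 300 bases, chr1:72610800-72611099), the largest fall, all on the plus strand of mm9, with capitals for bases in a 32-base word that occurs more than once in the genome.
XLOC_028874: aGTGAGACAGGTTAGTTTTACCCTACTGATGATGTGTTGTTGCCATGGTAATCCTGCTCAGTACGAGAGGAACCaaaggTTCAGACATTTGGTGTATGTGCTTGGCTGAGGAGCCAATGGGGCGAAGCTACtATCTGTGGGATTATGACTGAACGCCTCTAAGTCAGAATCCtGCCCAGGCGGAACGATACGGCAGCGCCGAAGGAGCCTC
XLOC_053816: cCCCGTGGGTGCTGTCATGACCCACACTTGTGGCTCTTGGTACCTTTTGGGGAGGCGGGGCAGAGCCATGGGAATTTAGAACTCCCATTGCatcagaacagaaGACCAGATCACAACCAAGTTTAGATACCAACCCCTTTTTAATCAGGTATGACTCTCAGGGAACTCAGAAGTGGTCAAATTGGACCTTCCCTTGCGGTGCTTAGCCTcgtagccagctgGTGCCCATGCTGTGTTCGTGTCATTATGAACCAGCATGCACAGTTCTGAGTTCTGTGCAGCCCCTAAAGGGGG
XLOC_002997: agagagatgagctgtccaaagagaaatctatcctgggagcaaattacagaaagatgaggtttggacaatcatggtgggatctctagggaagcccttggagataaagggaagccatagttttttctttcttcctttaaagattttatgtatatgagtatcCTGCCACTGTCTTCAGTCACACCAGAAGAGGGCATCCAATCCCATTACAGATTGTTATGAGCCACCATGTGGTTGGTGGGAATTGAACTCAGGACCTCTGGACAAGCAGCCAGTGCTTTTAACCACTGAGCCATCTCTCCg
Capitals cover 96.2% of XLOC_028874, 91.5% of XLOC_053816 and 46.7% of the stretch of XLOC_002997. The words of XLOC_028874 occur at most 7 times and those of XLOC_002997 up to 69 times. By the rule of 90% identity over 80% of the length, XLOC_053816 has 10 other places and XLOC_002997 has 0. XLOC_028874 resembles the 3′ end of 28S ribosomal RNA, which is background knowledge, since no ribosomal reference was aligned here.

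Among units with at least 1 FPKM in both libraries, the 5 largest rises were each larger than the change of the nearest gene. XLOC_003829, a 10823 bp locus 93491 bp from Ivns1abp (an actin-binding kelch protein), went from 1.38 to 11.3 FPKM, a log2 change of 2.37, while Ivns1abp changed by 0.78. XLOC_020482 went from 3.18 to 16.4 while its nearest gene Sema5a, a semaphorin guidance molecule, was at 5.78 and 4.55. XLOC_022174, 51341 bp long, went from 1.75 to 7.07 beside Rrm2b, a p53-induced subunit of ribonucleotide reductase, at 3.91 and 7.32. XLOC_053816 went from 9.04 to 27.6 beside the taste receptor gene Tas2r121, which is listed at 0 in both. XLOC_061803 went from 3.95 to 11.4 near Cdon, a cell surface receptor that promotes myogenesis, at 37.5 and 64.5. GENCODE places XLOC_061803 in an intron of Cdon itself, so it is intergenic only by the loci of the tables.

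The 5 largest falls were short loci of 210 to 407 bp that stood alone. XLOC_002997 fell from 38.9 to 2.76 FPKM, a log2 change of -3.41, while the nearest gene Smarcal1, an annealing helicase, was at 6.41 and 8.08. XLOC_059877 fell from 10.2 to 1.24 beside Mrps31, a mitochondrial ribosomal protein gene, at 19.7 and 16.9. XLOC_038943 fell from 8.39 to 1.05 beside Ccrn4l, the circadian deadenylase nocturnin, which also fell, from 7.60 to 2.61. XLOC_055875 fell from 16.1 to 2.99 beside Mapk1ip1 at 2.35 and 5.11. XLOC_000884 fell from 7.43 to 1.23 while the mitochondrial calcium-binding gene Efhd1 went the opposite way, from 2.27 to 13.8. Of these, XLOC_055875 has 12142 other places at 90% identity or more, and 60.9% of the 32-base words of XLOC_000884 occur elsewhere. Over all 305 lower units, 28.2% had at least 50% of their words elsewhere, against 8.74% of the 709 higher ones and 8.16% of all 8319. Lower units were also shorter, with a median span of 335 bp against 564 bp for higher ones.

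**Figure D4:**
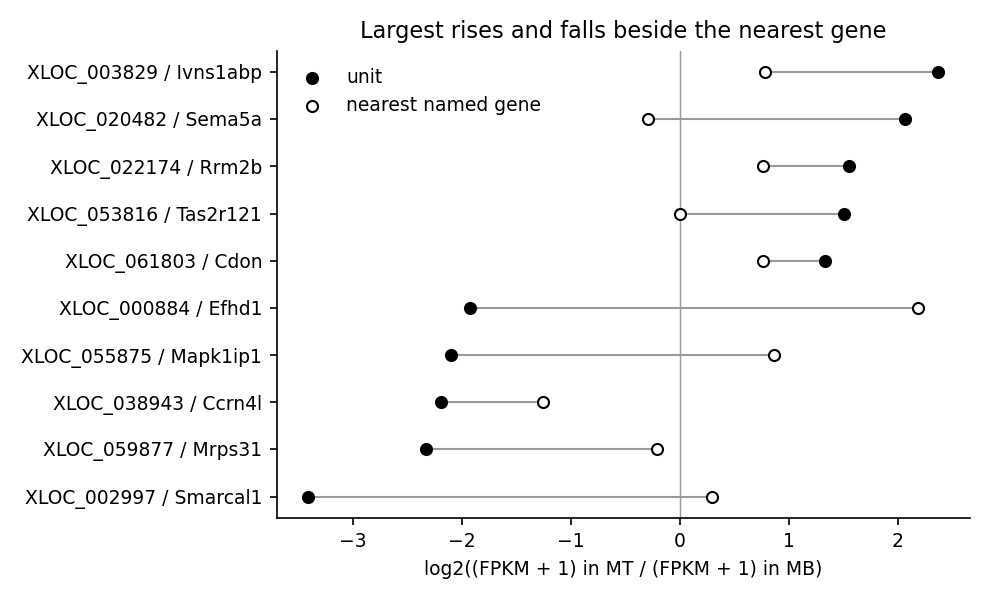
Log2((FPKM + 1) ratio), MT over MB, of the 5 largest rises and the 5 largest falls among units with at least 1 FPKM in both libraries (filled points) and of their nearest named genes (open points), joined by a line. XLOC_000884 and Efhd1 stand on opposite sides of 0, at -1.92 and 2.18.

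Units measured in only 1 library gave further contrasts. Among those at or below 0.05 FPKM in MB, XLOC_009014 was the highest in MT, at 8.71 (8.19 to 9.23) on 1117.5 implied fragments against 0.0245 on 3 in MB, while its nearest gene 1700106J16Rik was at 0 and 0.0109. The next were XLOC_026125 at 2.45, XLOC_037187 at 2.28, XLOC_038047 at 2.17 and XLOC_026124 at 2.17. XLOC_026125 lies inside the locus of XLOC_026124, so the 2 are not separate places. XLOC_026125, XLOC_037187 and XLOC_038047 were at 0 in MB and rested on 14, 13 and 15 implied fragments in MT. At the limit of 3 fragments they were at least 4.45-fold, 4.13-fold and 4.77-fold higher. GENCODE places XLOC_038047 in an intron of Gm14221. XLOC_037187 lies near Ryr3, a calcium release channel, which went from 0.858 to 5.78 FPKM, and GENCODE places it in an intron of Ryr3. Among units at or below 0.05 in MT, XLOC_039887 was highest in MB, at 2.21 on 16 implied fragments, and 0 in MT. Its nearest gene is Myoz2, a Z-disc protein gene, which went the other way, from 0.0121 to 19.9. XLOC_030756, at 1.69 in MB and 0 in MT, lies beside Hbegf, a growth factor gene that fell from 19.8 to 2.25. The other 3 were XLOC_062882, XLOC_007917 and XLOC_014241, at 1.41, 1.20 and 1.20 in MB. Apart from XLOC_014241, these MB units rested on 11 to 16 fragments.

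The change of a unit went with that of its nearest named gene, but weakly. The 8319 units had 2805 different nearest genes, which were higher in MT for 1639 units, lower for 1267 and inside the fold of 1.5 for 5413. Beside a higher gene 13.2% of units were higher (95% Wilson interval 11.68 to 14.97) and 1.16% lower (0.743 to 1.80). Beside an unchanged gene the shares were 8.57% (7.86 to 9.35) and 3.86% (3.38 to 4.41). Beside a lower gene they were 2.21% (1.53 to 3.18) and 6.08% (4.89 to 7.53). The intervals cover counting error only, and units that share a gene or a locus are not independent. The median log2 change was 0.25, 0.20 and 0.03 in the 3 classes. Across the 8319 units, which share both libraries, Pearson's r between the log2 change of unit and gene was 0.248 and Spearman's rho 0.332. Within the class of unchanged genes r was 0.155, and among higher genes 0.0857. The median unit stood 0.12 above its gene in log2 change (quartiles -0.31 and 0.53).

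The nearest gene was unchanged for a like share of changed and unchanged units, 65.4% of higher, 68.5% of lower and 64.9% of the rest. Of the 709 higher units, 217 lay nearest to a higher gene, 464 to an unchanged one and 28 to a lower one. Of the 305 lower units, 77 lay nearest to a lower gene, 209 to an unchanged one and 19 to a higher one. Where the nearest gene had at least 1 FPKM, the FPKM of a unit was a median of 0.713% of the gene's in MB and 1.80% in MT, both per length of transcript. The unit reached the level of its gene for 37 units in MB and for 48 in MT.

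The correlation with the nearest gene, and the contrast in the share of higher units, were smaller at longer distance. At 5 to 10 kb, 14.3% of units were higher beside a higher gene and 5.26% beside an unchanged one, and r over all 2559 units of that range was 0.308. At 10 to 20 kb these shares were 14.1% and 7.35%, with r of 0.279. At 20 to 50 kb they were 12.5% (9.73 to 15.9) and 9.79% (8.37 to 11.4), with r of 0.236. At 50 to 100 kb they were 11.5% (8.34 to 15.6) and 14.0% (11.99 to 16.34), with r of 0.133. The intervals overlap in both of the farther ranges. Lower units did not show the same order, with 5.24% beside a lower and 3.93% beside an unchanged gene at 5 to 10 kb, 8.58% and 4.65% at 10 to 20 kb, 6.55% and 3.79% at 20 to 50 kb, and 2.94% and 2.76% at 50 to 100 kb. The share of higher units over all genes went up with distance, from 6.29% at 5 to 10 kb to 12.2% at 50 to 100 kb, while the share of lower ones went from 3.75% to 2.36%. All shares by distance count each unit, and strings of close neighbors weigh on them. Of the 176 higher units at 50 to 100 kb, 12 lay in a single string at chr18:4920874-4948611 and 9 in another at chr2:112948715-112968053. GENCODE places units of these strings inside genes, such as XLOC_029267 in Svil and XLOC_037187 in Ryr3. The largest string, at chrX:9325115-9389992, held 35 higher units and lay 34080 to 91332 bp from a named locus. It thus also reaches into this range, and its units past 50 kb were not counted apart. Whether the order by distance holds with each string counted once was not tested. By the GENCODE strand of the nearest gene, 3354 units lay upstream and 3915 downstream, and 1050 could not be placed. Upstream units were higher in 9.78% (8.82 to 10.8) and lower in 4.56% (3.91 to 5.32), and downstream units in 6.67% (5.93 to 7.49) and 2.81% (2.34 to 3.38). Beside a higher gene, 17.6% (14.8 to 20.7) of upstream units were higher against 8.34% (6.66 to 10.4) of downstream ones. Upstream here refers to the loci of the tables. XLOC_061803 and XLOC_037187 count as upstream, yet GENCODE places them in introns of their nearest genes, Cdon and Ryr3. In all, 597 units lie inside their nearest gene in GENCODE, and 18.4% of them were higher. Whether the contrast of sides holds without them, or with each string counted once, was not tested. The strand of a unit is not given in the tables, so its direction relative to the gene is not described.

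**Figure D5:**
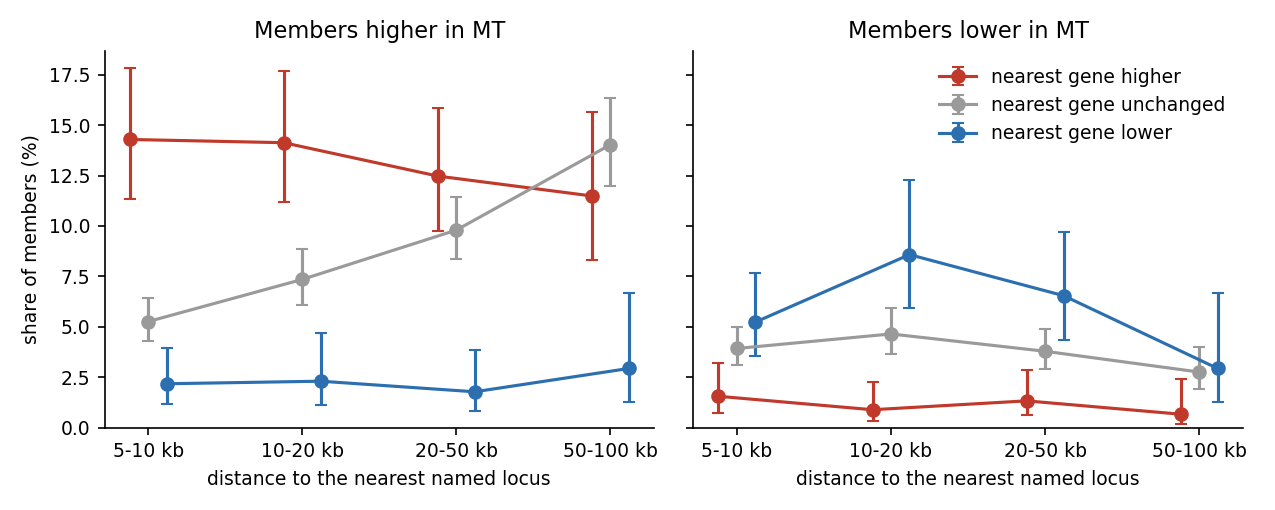
Share of units that were higher (left) or lower (right) in MT by distance to the nearest named locus, for nearest genes that were higher (red), unchanged (gray) or lower (blue). Bars are 95% Wilson intervals, and the red and gray points for higher units stand apart at 5 to 10 kb (14.3% and 5.26%) and overlap from 20 kb outward.

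Beside the myogenic genes Myog and Mb, units were listed at 0 in MB and at low levels in MT. Myog, the transcription factor that commits myoblasts to fusion, went from 0.695 to 251 FPKM, and 4 units lie upstream of it between 5333 and 18820 bp. XLOC_003567, the closest, was at 0 in MB and 0.445 (0.314 to 0.577) in MT. XLOC_003566 was at 0 and 0.470 (0.274 to 0.666), XLOC_001287 at 0 and 0.182 (0.108 to 0.256), and XLOC_003564 at 0 and 0.201 (0.104 to 0.299). All 4 were at 0 in MB and measured in MT on 17 to 46 implied fragments, yet none reached the fold of 1.5 on the FPKM + 1 scale. Downstream of Mb, XLOC_022726 and XLOC_022725 were likewise at 0 in MB and at 0.191 (0.103 to 0.278) and 0.142 (0.0598 to 0.223) in MT. These 6 were picked after their values were seen. Of all 8319 units, 969 were at 0 in MB. A unit at 0 in MB had to be measured in MT, since no unit was under 0.0852 FPKM in both libraries. Whether values of 0 in MB were more common beside Myog and Mb than beside other genes was not tested. Under the rule that names units by size of change, XLOC_043766 beside Pax7, the satellite cell factor, was at 0.159 on 1 fragment and 1.47 on 10. XLOC_062486 beside Tcf12, an E protein partner of MyoD, went down from 1.40 (0.708 to 2.08) to 0.225 (0 to 0.491), while Tcf12 was at 37.0 and 48.2.

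Counted by gene list, few units passed the fold. The 51 units beside 12 of the 26 myogenic regulators included 5 higher and 1 lower, and 44 of the 51 had a log2 change above 0, with a median of 0.29, where 76.2% of all 8319 units had one above 0. Beside the 72 genes of muscle structure and contraction, of which 59 were higher themselves, only 19 units were found, at 11 genes, with 2 higher and 1 lower and a median of 0.10. The higher ones were XLOC_027323 beside Myom1, an M-band protein, at 0.385 (0 to 0.831) and 1.25 (0.480 to 2.03) FPKM with intervals that overlap, and XLOC_009404, 8107 bp from the myosin light chain gene Myl4, at 0.0361 and 0.584. Acta1, the skeletal actin, went from 12.1 to 479 FPKM while the 1 unit beside it, at 8452 bp, changed by 0.21. XLOC_032969 beside Ankrd1, a stretch-responsive titin partner, was lower, at 1.13 and 0.309, with Ankrd1 at 229 and 243. Beside the 10 genes that the study places next to seRNAs, a list the study chose in these cells, 25 units included 3 higher and 1 lower, with a median of 0.26. For comparison, 8.52% of all 8319 units were higher, 3.67% were lower and their median was 0.20.

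Of the 36 cell cycle genes 28 were lower in MT, and 31 units lay beside 7 of them, with 1 higher, beside E2f8, 2 lower and a median of 0.11, beside 8.52% higher, 3.67% lower and 0.20 over all 8319 units. XLOC_055871 beside Mki67, a proliferation marker at 62.2 and 15.6 FPKM, was at 1.08 in MB and 0 in MT. XLOC_048248 beside Cdk6, a G1 kinase at 21.8 and 8.82, was at 1.16 (0.461 to 1.86) and 0.394 (0 to 0.789), intervals that overlap, and 81.2% of its words occur elsewhere. It was the only one past the fold among the 18 units beside Cdk6, whose median log2 change was 0.21 and whose largest was 0.50, although Cdk6 was lower. The 2 units beside Cdk1, the mitotic kinase, XLOC_006604 and XLOC_006605, were at 0.296 and 0.369 FPKM in MB and at 0.0309 and 0 in MT. Beside 18 of the 38 matrix and adhesion genes lay 99 units, 5 higher and 2 lower, with a median of 0.22, to be read against the same shares. All 5 higher ones lay beside Wisp1, a matricellular protein gene at 60.9 and 86.0 FPKM. They include XLOC_022574 at 0.674 and 2.83, XLOC_022573 at 0.494 and 2.39 and XLOC_022572 at 0.536 and 2.27, in 1 group of neighbors. The gene of the matrix glycoprotein tenascin C, Tnc, was at 73.0 and 10.8 FPKM, and its 4 units had log2 changes from -0.83 to -0.16. The units beside Cdk1, Tnc, Myl4 and Acta1 were named after their values were seen, and the lists were drawn up with earlier results of these data known.

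Units lay in strings, and neighbors moved together. Joined where they were less than 5000 bp apart, the 8319 units formed 3421 groups, of which 1858 held a single unit and 98 held 10 or more. Those 98 groups held 1505 units (18.1%). Across 4898 adjacent pairs within a group the correlation of the log2 changes was 0.708, against 0.340 across 1257 adjacent pairs of different groups up to 100 kb apart, both from the same 2 libraries. Of the groups, 328 held a higher unit and 270 a lower one, and 4 held both. Counting each group once, with a span-weighted mean FPKM, 196 were higher and 212 lower, so the excess of higher over lower units was not seen when each string was counted once.

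The largest group, 44 units at chrX:9325115-9389992 between Dynlt3, a dynein light chain gene, and Hypm, had 35 higher units. Its FPKM had a median of 0.263 in MB (0 to 0.844) and 1.11 in MT (0.645 to 1.80), and the MT interval lay above the MB interval for 36 of the 44. No GENCODE gene overlaps it. The next, 40 units at chr9:13249871-13419126 beside Maml2 (a Notch coactivator) and Phxr4, had a median of 0.120 in MB and 0.414 in MT, with 4 higher units and 31 whose MT interval lay above. The third, 39 units at chr2:128042473-128116928, lies beside Bcl2l11, which encodes the cell death protein Bim, and the noncoding gene Gm14005. Its medians were 0.105 and 0.540, and 13 of its units were higher. All 39 overlap GENCODE genes, namely Gm14005 and Gm14012, with 3 of them on an exon. All 44, 40 and 39 units had a log2 change above 0. Not every large group leaned that way. In the group of 29 beside Kalrn, at chr16:34533566-34572780, the median was 0.620 in MB and 0.393 in MT, with 1 unit lower and 0 higher and with overlapping intervals in all 29 units, a group named after its values were seen.

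GC content and E-boxes were close to those of all assembled units. Repeated sequence was more common than over all assembled units, but its median was not above that of the neighboring distance classes. The median GC share was 44.2%, against 44.1% over all assembled units. In the middle 300 bases of the 7991 loci that long, the E-box CAGCTG, which reads the same on both strands, occurred in 14.3%, against 13.5% over all units of that length, and in 14.0% of higher units and 11.3% of lower ones. The E-box CANNTG, which includes CAGCTG, occurred in 80.6%, against 81.0%. Units with CAGCTG were higher in 7.17% and those without it in 7.35%. A median of 2.00% of a unit's 32-base words occurred elsewhere in mm9, against 0% over all assembled units, and 679 units (8.16%) had at least 50% of them elsewhere, against 4.91% of all assembled units. Of those 679 units 9.13% were higher and 12.7% lower, while of the other 7640 units 8.47% were higher and 2.87% lower. The 1081 units that overlap a protein-coding GENCODE gene were higher in 17.9% and lower in 1.85%, and those that overlap no GENCODE gene in 7.26% and 3.96%. The 597 units that lie in GENCODE inside their own nearest gene were higher in 18.4%, with r of 0.545 to that gene.

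At the lower distance limit, XLOC_031554 at 5000 bp was inside the rule (0.0676 and 0.172 FPKM) and XLOC_024697, the next closer unit, outside it (1.39 and 0.343). At the upper limit XLOC_057992 at 99961 bp was inside (0.149 and 0) and XLOC_025896 at 100108 bp outside (0.325 and 0.145).

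The libraries were checked against their labels. All 7 myotube markers were higher in MT, their FPKM summing to 16.4 in MB and 1834 in MT. All 5 myoblast markers were above 1 FPKM in both libraries. They summed to 200 in MB and 393 in MT, with 3 higher and 0 lower in MT, so they do not set MB apart from MT. The 21 markers of other cells summed to 69.7 in MB and 24.5 in MT, with 5 above 1 FPKM in MB and 4 in MT. The highest of them in MB was Nefl, a neurofilament gene at 38.1 and 0.138 FPKM. The adipocyte genes Adipoq and Plin1 and the bone gene Ibsp were at 0 in both libraries, and all 4 endothelial markers were at or under 0.114. Other members of the adipocyte list were not at 0, with Pparg at 14.8 in MB and 3.94 in MT, Cebpa at 4.65 and 12.1, and Fabp4 at 0.251 and 0.0714. In the bone list Runx2 was at 10.3 and 6.11, Bglap at 0.202 and 1.09, and Sp7 at 0.131 and 0.0271. Whether the cells behind Nefl or the adipocyte and bone factors Pparg, Cebpa and Runx2 bear on the intergenic units was not tested.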

How the data were processed

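Total RNA of C2C12 cells, depleted of ribosomal RNA, was sequenced by the authors as strand-specific libraries in MB and MT, 1 library each. Per the submitters' processing notes, TopHat2 and Cufflinks were used with the mm9 build. The deposited tables hold FPKM values per assembled unit or gene with their 95% intervals, which the authors made by assembling the transcriptome and estimating abundance. The tables of the polyA libraries hold 0 assembled units among 24992 rows each and were not used. The strand of a unit is not given in the tables.

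Units were selected by locus, and distances were taken to the nearest named locus. Changes were computed as log2 of the ratio of FPKM with a pseudocount of 1, and an absolute value of 0.58 or more was counted. With 1 library per condition no test was made, and counts and medians were set beside the same values over all units or rows. The number of fragments behind an FPKM was derived from its interval as the square of 2 times the FPKM over the distance to the upper bound. For units under 200 fragments it was whole within 0.05 for 92.4% in MB and 92.5% in MT. A value of 0 was given a limit of 3 fragments. For 6 rows an ID was shared by another row, and each row was kept as a unit of its own. Units less than 5 kb apart were joined into groups.

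Sequence was read from mm9, with gene models from GENCODE. Each unit was checked for 32-base words that occur more than once in the genome, at steps of 16 bases, and named units of up to 1000 bp were searched with blastn 2.17.0 for other places with at least 90% identity over 80% of their length. Primers came from the oligonucleotide table of the study. Python 3.11.15, numpy 2.4.6, pandas 2.3.3, scipy 1.17.1, pysam 0.24.0 and matplotlib 3.10.9 were used, and the counting steps were tested on simulated data.

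The units and gene lists were chosen with earlier results of these data known. Units were named by rule: the 5 highest in each library, the 5 largest rises and falls at 1 FPKM or more in both, the 5 highest in 1 library among those at or below 0.05 FPKM in the other, up to 3 per gene list with at least 1 FPKM in either library, those with both primers of an assayed transcript, the 3 largest groups and those at the distance limits. Alternatives covered the pseudocount, filters on FPKM, on implied fragments and on quantification status, centring, joining of units, the distance limit, the fold, the detection limit and the choice of nearest gene, and 2 more were added after the data were seen. Some results that the rule names are not reported here.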

Additional observations from a re-analysis of the deposited data

How the results depend on the processing

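Of 106 values recomputed over 10 results, 45 stayed within their range, 60 moved and 1 changed sign. No paired analysis was possible because each condition had 1 library. With a pseudocount of 0.1, 5308 units were higher and 1367 lower, the median log2 change was 0.93, the median difference from the nearest gene was 0.62 and r was 0.326. The share higher was then 82.3% beside a higher gene and 62.8% beside an unchanged one, and the share lower beside a lower gene was 33.2%. With a pseudocount of 0.01 these values were 5672, 1500, 1.45, 1.09, 0.341, 83.5%, 68.1% and 36.6%, since a smaller pseudocount lets low units pass the fold. Among the 289 units at 1 FPKM or more in both libraries they were 46, 71, 0.0021, -0.0032, 0.200, 39.5%, 14.4% and 36%, so the lower units outnumbered the higher ones and the difference from the gene changed sign. The cause was not tested. Among units at 1 FPKM or more in either library, 447 were higher, the median was 0.45, the difference 0.21 and r 0.335, with shares of 73.0%, 42.8% and 42.7%. Centred on the median of named genes at 1 FPKM or more in both libraries, 1756 were higher and 181 lower. The median was then 0.43, with shares of 29.9%, 19.2% and 4.23%. This centring also shifts low units with equal values in both libraries, so these values do not measure a larger change.

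Joined into groups, 196 were higher, the median was 0.16 and r was 0.225, with shares of 10.6%, 5.40% and 9.40%. From 10 kb outward the median was 0.2133, the difference 0.11, r 0.224 and the share higher beside an unchanged gene 10.03%. At an absolute log2 change of 1 or more, 192 were higher and 118 lower, with shares of 5.39%, 2.04% and 3.43%. With the nearest gene taken among those at 1 FPKM or more in either library, the difference was 0.16 and the shares higher were 15.1% and 7.65%. An FPKM of at least 1 was reached by 482 units in MB and 807 in MT, in place of 5612 and 7828. For units that overlap no GENCODE gene, an alternative chosen after seeing the data, the median was 0.1949, the difference 0.0903 and the shares higher 11.0% and 7.29%. The other alternative chosen after seeing the data, units with under 50% of their words elsewhere, moved no value beyond its range. At least 10 implied fragments in 1 library moved none either. Status OK in both libraries kept all 8319 units, so it could move no value. Depth limits most units, with a median of 8 implied fragments in MB and 16 in MT.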
